A study of Homo sapiens with 9 samples.

Results

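The messages that encode the poly(A) binding proteins and their direct regulators were examined in RNA bound by those same proteins. The genes were chosen by name: PABPN1, PABPC1, PABPC4, PAIP1, PAIP2 and PAIP2B, which are 6 of the 51105 genes listed in both deposited tables. All 6 had a mean above 50 normalised reads in both tables, as did 14581 genes in all. RNA associated with PABPN or with PABPC was collected by RNA immunoprecipitation (RIP) from HEK293T cells, an established human embryonic kidney line, after crosslinking with 0.1% formaldehyde for 10 min. Each of 3 biological replicates gave 1 lysate that was divided between an anti-PABPN and an anti-PABPC antibody against the endogenous proteins, and 3 libraries each of input RNA, PABPN RIP and PABPC RIP were sequenced without poly(A) selection. No group carried a genetic change or a drug. Control RIPs with matched IgG gave too little RNA for a library, so no control RIP was sequenced and the levels are given without one.

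PABPN1 encodes the nuclear poly(A) binding protein, which coats the growing tail and stimulates poly(A) polymerase. PABPC1 and PABPC4 encode cytoplasmic poly(A) binding proteins, which bind the tail of exported messages, contact the translation initiation factor eIF4G and recruit deadenylases. PAIP1 encodes a PABPC partner that promotes translation, while PAIP2 and PAIP2B encode inhibitors that compete with the tail and with PAIP1 for PABPC. PABPC1 is also known to limit translation of its own message through an adenine-rich stretch in the 5′ leader.

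Both antigens bind the tail that is added after the cleavage signal, so the ends of the messages other than PABPC1, whose sequence is not printed here, are shown first, from GENCODE release 44 on hg38. AATAAA, on the sense strand, was found in the last 40 bases of the canonical transcript of 6 of 6 members, against 62.3% of 20001 canonical protein coding transcripts. The related ATTAAA without AATAAA was found in another 13.9% of them. The windows of 30 bases below are written 5′ to 3′ on the strand of the gene, all lie in the last exon near the transcript's end, and capitals mark AATAAA. PABPN1 holds the motif at 2 places in its window.
PABPN1, chr14:23326134-23326163, plus strand: catgAATAAAgttgtttttgaaAATAAAaa
PABPC4, chr1:39560818-39560847, minus strand: tttcccAATAAAgaaaaaaaatctccataa
PAIP1, chr5:43526273-43526302, minus strand: tttgaaAATAAAgcttaaatagttgtttcc
PAIP2, chr5:139369688-139369717, plus strand: atttaaaaaAATAAAtaatagtagaactga
PAIP2B, chr2:71182738-71182767, minus strand: gttgagaatctcAATAAAatgttaaatgca
The motif is a description of the sequence and no measurement of its use.

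The deposited level of a gene is a mean over 6 libraries, 3 of input and 3 of one RIP, of read counts divided by a size factor for depth. No spread between libraries comes with such a mean. PABPC1 had the highest level of the 6 genes, with a mean of 16000 normalised reads in the PABPN table and of 37191 for PABPC. The gene lies on chromosome 8 (hg38), from 100685816 to 100722809 on the minus strand. Per kilobase of the length given for the gene, these were 3858 and 8968 normalised reads. PABPN1 followed in the PABPC table with 1630 per kilobase, from a mean of 6319, and stood at 1160 per kilobase in the PABPN table, from a mean of 4496. PABPC4 stood at 1220 per kilobase in the PABPN table and 1529 for PABPC, so PABPN1 and PABPC4 changed places between the tables. Reads in introns and exons were counted together, so each level covers spliced and unspliced RNA. The length given for PABPC1, 4147 bases, falls far short of its locus, so reads in introns raise a level per kilobase. The study held that a spliced length overstates genes with many intron reads. The orders per kilobase are therefore rough.

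The regulators were lower per length. PAIP2 had 764.4 normalised reads per kilobase in the PABPN table and 1202 for PABPC. PAIP1 had 457 and 583.8, and PAIP2B, the paralog of PAIP2, had 127.1 and 142.1. The order PAIP2, PAIP1, PAIP2B was the same in both tables. Whether neighbours in these orders differ beyond the spread between libraries cannot be read from the means alone.

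**Figure D1:**
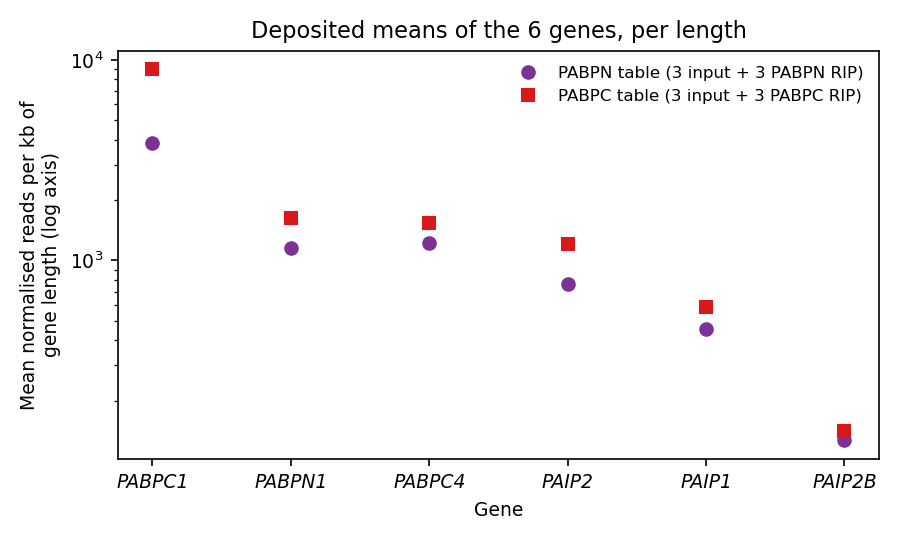
Mean normalised reads per kilobase of gene length (log axis) for the 6 genes, with circles for the PABPN table and squares for the PABPC table, each point the authors' mean over 3 input and 3 RIP libraries, with no error given. PABPC1 lies highest, at 3858 and 8968, and PAIP2B lowest, at 127.1 and 142.1. Each table keeps its own scale for depth.

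By the deposited means, all 6 messages were at a higher level in the PABPC RIP than in the PABPN RIP. Both tables rest on the same 3 input libraries, so once the tables are put on 1 input scale the input part cancels and the difference of the 2 RIPs remains. For PABPC1 the mean level in the PABPC RIP exceeded that in the PABPN RIP by 55005 normalised reads. The difference was 7699.9 for PABPC4 and 5792.4 for PABPN1, the message of the nuclear protein. Among the regulators it was 4053.6 for PAIP2, 1532 for PAIP1 and 492.88 for PAIP2B.

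A level cannot be below 0, so a ratio of the 2 means above 1 on the common scale is also the lowest fold of PABPC RIP over PABPN RIP that the data allow. PABPC1 was at least 2.72-fold higher in the PABPC RIP. PAIP2 was at least 1.84-fold higher and PABPN1 at least 1.64-fold higher. PAIP1, PABPC4 and PAIP2B were at least 1.49-fold, 1.47-fold and 1.31-fold higher. The 3 input libraries gave slightly different scales between the tables, and over these the lowest fold ran from 2.7 to 2.75 for PABPC1, from 1.63 to 1.66 for PABPN1 and from 1.3 to 1.32 for PAIP2B. The order of the bounds is no order of the folds themselves, because a bound lies further below the fold the more of the mean is input.

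Against all genes the bounds were not rare. On the log2 scale, 5 of 6 members had a lowest PABPC over PABPN ratio above 0.5 (PABPC1 1.44, PAIP2 0.88, PABPN1 0.72, PAIP1 0.58 and PABPC4 0.55), and PAIP2B had 0.39. Of the 14581 genes with means above 50 in both tables, 26.6% had a ratio above 0.5 in this direction, and 23.3% had one beyond 0.5 in the other direction. Among the 12452 protein coding genes the share in the direction of the members was 30%. The median ratio was -0.04 over all genes and 0.06 over protein coding genes. PABPC1 stood at percentile 95.2 of all genes, PAIP2 at 85.1, PABPN1 at 80.6, PAIP1 at 76.2, PABPC4 at 75.4 and PAIP2B at 69.3. These values have no replicate error. In 3330 deeply read genes with values per library, the median coefficient of variation within a group was 7.77% in input, 8.44% in PABPN RIP and 9.1% in PABPC RIP.

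**Figure D2:**
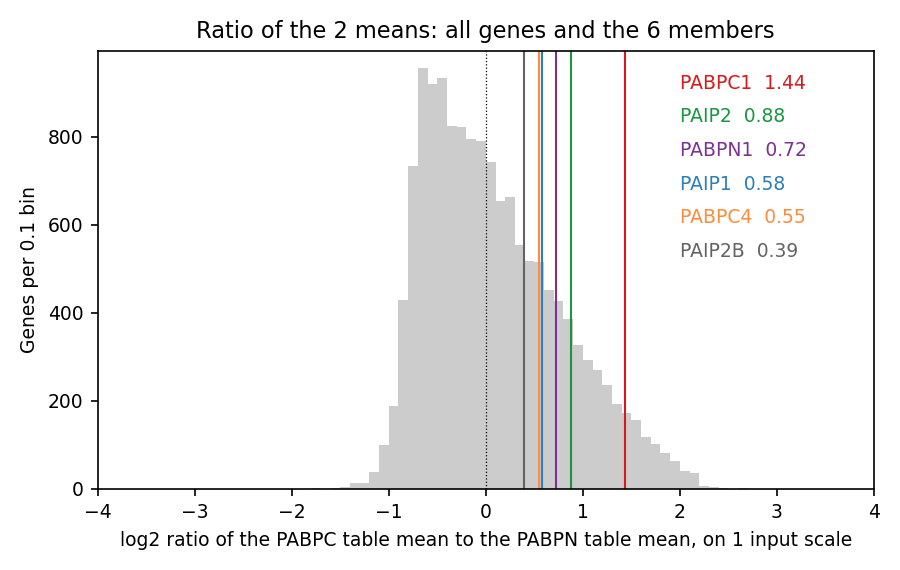
Histogram of the log2 ratio of the PABPC table mean to the PABPN table mean on 1 input scale, for 14581 genes with both means above 50 (genes per bin of 0.1), with a coloured line for each of the 6 genes. All 6 lines lie to the right of 0, from 0.39 for PAIP2B to 1.44 for PABPC1.

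For PABPC1 the 2 means also fixed the direction against input. Its ratio is above 2, so the PABPC RIP was higher than input whatever the level in the PABPN RIP, by at least 1.72-fold (1.7-fold at the scale least in favour). If its level in the PABPN RIP equalled input, its level in the PABPC RIP would be 4.44 times input. For PABPN1, PABPC4 and PAIP2 the means allow a range of pairs. The PABPC RIP of PAIP2 could be at or below input only if its PABPN RIP were at most 0.0872 times input. The same limit was 0.216 times input for PABPN1 and 0.365 times input for PABPC4. If the PABPN RIP equalled input, the PABPC RIP would stand at 2.68 times input for PAIP2, 2.29 times for PABPN1 and 1.93 times for PABPC4.

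**Figure D3:**
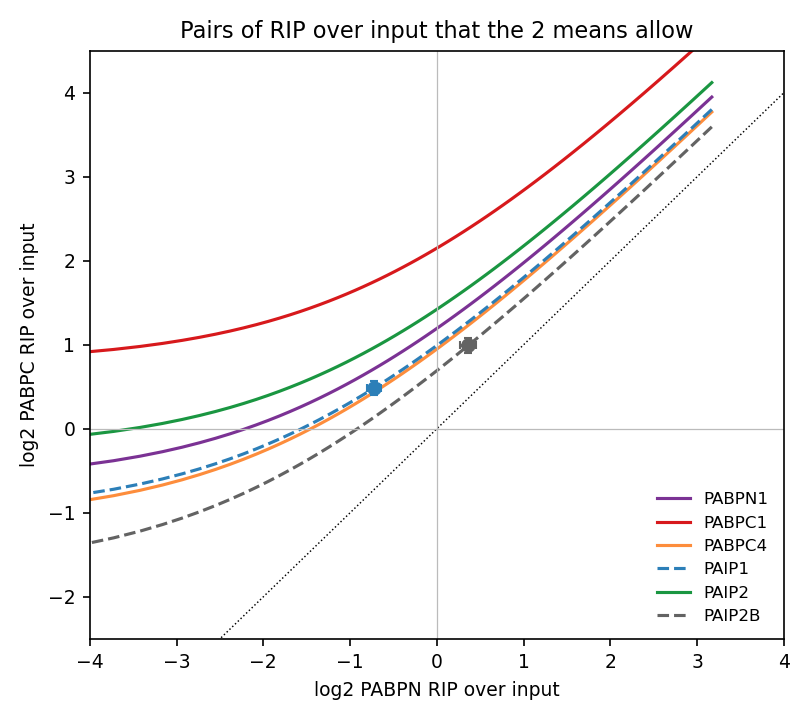
Pairs of log2 PABPN RIP over input (x axis) and log2 PABPC RIP over input (y axis) that the 2 means allow for each gene (lines), with the measured pairs of PAIP1 and PAIP2B as points with standard errors from limma (n = 3 libraries per group). Every line lies above the dotted diagonal of equal levels in both RIPs, and the PABPC1 line stays above 0 on the y axis.

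Values per library were obtained for PAIP1 and PAIP2B. The means carry 15 digits. Sets of whole reads in the 9 libraries that give both means were searched where their replicates lay within a limit on their spread. For genes with few enough reads only 1 such set was found. This was so for PAIP2B. For PAIP1, 12 such sets were found. Of these, 1 held 99.1% of the weight given the usual spread between libraries, and its values are given here. Levels of PABPN1, PABPC1, PABPC4 and PAIP2 were too high for this. The libraries of a group are called A, B and C, in letters that are not the replicate numbers of the samples. Size factors, which follow depth, ran from 0.783 to 1.220, and those of the PABPC RIP libraries differed 1.43-fold. In each group 1 library deviated from its group mean together with one in the other groups: over 5247 genes the deviations of input A correlated at 0.751 with PABPN RIP C and at 0.786 with PABPC RIP A. The part of this in the results was not tested, and values without these 3 libraries are given below.

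PAIP1, the translation activator, was lower in PABPN RIP than in input and stood highest in PABPC RIP. Input libraries A, B and C had 1849, 1989 and 1951 normalised reads, from 1908, 1832 and 1746 reads. PABPN RIP libraries had 1149.6, 1171.5 and 1189 normalised reads, from 1300, 1209 and 1223 reads. PABPC RIP libraries had 2466, 2862 and 2777 normalised reads, from 2364, 2155 and 1860 reads. Each PABPN RIP library lay below each input library, and each PABPC RIP library above. How many other genes with values per library had groups without overlap was not counted. The group means were 1929 ± 72.5 in input, 1170 ± 19.7 in PABPN RIP and 2702 ± 208 in PABPC RIP normalised reads (SD, n = 3). The weight of a set of reads favours even replicates. The SD, standard errors and p-values of PAIP1 therefore rest in part on the choice of the set.

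In the limma fit over 7870 genes with values per library, PAIP1 fell by 0.72 on the log2 scale in PABPN RIP against input (SE 0.0823, adjusted p = 4.53e-05). This passed the cut-offs of the study, an adjusted p of at most 0.01 and a log2 difference beyond 0.5, as 9.42% of the genes fitted did in this direction. Its log2 difference of PABPC RIP against input was 0.48 (SE 0.0823, adjusted p = 2.07e-04), which missed the cut-off of 0.5 on size. That difference was 0.52 without the 3 libraries that deviated together, and so past the cut-off. PAIP1 was 2.304-fold higher in PABPC RIP than in PABPN RIP (log2 1.20, SE 0.0823, adjusted p = 1.11e-07), a direction called for 32% of the genes fitted. The log2 difference was 1.28 without the 3 libraries. The other 11 sets of reads found for PAIP1 held 0.86% of the weight between them. In these the log2 difference between the RIPs was 0.62 to 1.15, while that of PABPN RIP against input ran from -0.92 to 2.77.

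PAIP2B, the PABPC inhibitor, was higher in PABPC RIP than in input and in PABPN RIP. Input libraries A, B and C had 769.3, 656.8 and 678.1 normalised reads, from 794, 605 and 607 reads. PABPN RIP libraries had 845.4, 917.6 and 937.2, from 956, 947 and 964 reads. PABPC RIP libraries had 1421, 1335 and 1424, from 1362, 1005 and 954 reads. The 3 groups did not overlap, with input lowest and PABPC RIP highest, and the share of genes fitted without overlap was not counted. The group means were 701.4 ± 59.8 in input, 900.1 ± 48.3 in PABPN RIP and 1393 ± 50.8 in PABPC RIP normalised reads (SD, n = 3).

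PAIP2B was 1.989-fold higher in PABPC RIP than in input (log2 0.99, SE 0.0912, adjusted p = 1.37e-06 in limma), a call made for 38.6% of the genes fitted. Its log2 difference of PABPN RIP against input was 0.36 (SE 0.0912, adjusted p = 0.00731 in limma), which missed the cut-off on size, and 19.6% of genes passed in this direction. In some alternatives, given below, its adjusted p was above 0.01 too. It was 1.548-fold higher in PABPC RIP than in PABPN RIP (log2 0.63, SE 0.0912, adjusted p = 5.46e-05). Without the 3 libraries that deviated together the log2 difference between the RIPs was 0.65. The log2 differences of PAIP1 and PAIP2B in PABPN RIP against input had opposite signs, at percentiles 5.76 and 68.6 of the log2 differences of all genes fitted, and the difference between the 2 genes was not tested. In PABPC RIP against PABPN RIP they stood at percentiles 81 and 69.3.

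**Figure D4:**
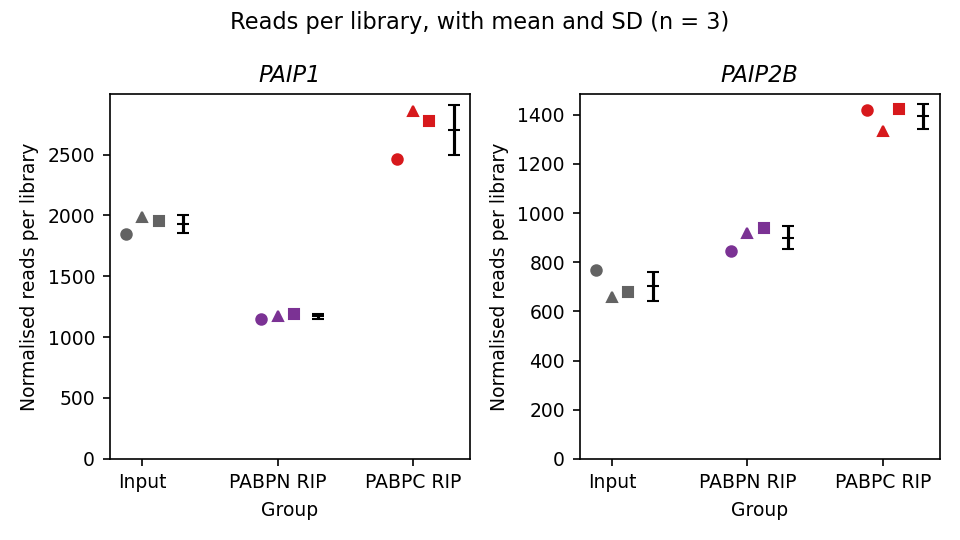
Normalised reads of PAIP1 (left) and PAIP2B (right) in the 9 libraries, with circles, triangles and squares for libraries A, B and C of a group and bars for the mean and SD (n = 3). PAIP1 falls from about 1929 in input to 1170 in PABPN RIP and stands at 2702 in PABPC RIP, while PAIP2B runs from 701.4 over 900.1 to 1393.

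Of 6986 other named genes fitted, those whose log2 levels over the 9 libraries were most like PAIP1 were ALKBH3 (Pearson r = 0.9972), SLC39A6 (r = 0.9969) and ATP6AP2 (r = 0.9948). ALKBH3 encodes a nucleic acid demethylase, SLC39A6 a zinc transporter and ATP6AP2 an accessory protein of the vacuolar proton pump. Their log2 differences between PABPC RIP and PABPN RIP were 1.14, 1.96 and 2.47. Those most like PAIP2B were PPP1R35 (r = 0.9939), PAQR4 (r = 0.9936) and C8orf58 (r = 0.9925), with log2 differences between the RIPs of 1.2, 1.4 and 1.23. The 9 points of each correlation share their libraries and fall in 3 groups, so the values describe likeness and carry no test.

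The other poly(A) binding protein genes were mostly below the range of these data. Of 20 genes and pseudogenes on a list of the family, 19 were in both tables and 2 had means above 50 in both, PABPC1L and ZC3H14. PABPC1L, a PABPC1 paralog known from oocytes, went the opposite way from the 6 members between the RIPs. Its PABPC RIP minus PABPN RIP log2 difference was -1.57 (adjusted p = 3.83e-08 in limma), a direction called for 39.6% of the genes fitted. In PABPN RIP it was higher than input by 0.84 on the log2 scale (SE 0.0933, adjusted p = 3.83e-05 in limma), a direction called for 19.6%. PAIP2B also lay above input there, by 0.36. The log2 difference of PABPC1L in PABPC RIP against input was -0.73 (adjusted p = 2.07e-05 in limma), and 31.8% of genes fitted were called in that direction. ZC3H14, a nuclear zinc finger protein that binds poly(A), had means of 4872 (PABPN table) and 4522 (PABPC table), each on its own scale. With the tables on 1 input scale, it was at least 0.12 higher in PABPC RIP than in PABPN RIP in log2.

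For the lists of related genes, the log2 ratio of the PABPC table mean to the PABPN table mean is given on the common scale. Where it is above 0, the PABPC over PABPN log2 fold is at least that value, and where it is below 0, at most that value. A list of partners and regulators of PABPC held 30 genes, which all had means above 50. Of these, 11 had a ratio above 0.5 and 4 had one below -0.5, with a median of 0.34. Over all genes the shares were 26.6% and 23.3% with a median of -0.04, and 30% of protein coding genes were above 0.5 with a median of 0.06. The highest ratios were those of EIF4G2, an eIF4G relative, at 1.19 and EIF4A1, the initiation helicase, at 1.16. At the other end were EIF4G3 at -0.69 and ATXN2, the ataxin-2 message, at -0.61. EIF4G3 had the higher mean in the PABPN table, with 41633 normalised reads against 22062 in the PABPC table. TOB1 and GSPT2 were the 2 genes of this list with values per library. Their log2 differences of PABPC RIP against PABPN RIP were 1.30 (adjusted p = 6.35e-05) and 0.79 (adjusted p = 0.00411) in limma. This direction was called for 32% of the genes fitted. In PABPN RIP against input, TOB1 and GSPT2 stood at -0.17 and 0.18 (adjusted p = 0.484 and 0.513 in limma). In PABPC RIP against input they stood at 1.12 and 0.96 (adjusted p = 2.05e-04 and 0.00112 in limma), a direction called for 38.6%. TOB1 encodes an adaptor between PABPC and deadenylases, and GSPT2 a translation release factor.

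Among the 20 listed genes for tail synthesis and nuclear tail handling, 6 had a log2 ratio of the means above 0.5 and 0 had one below -0.5, with a median of 0.09. The share above 0.5 was that of all protein coding genes, 30%, whose median was 0.06. The fold of a gene with a ratio below 0 may still lie beyond -0.5. The highest ratios were those of ALYREF, an mRNA export adaptor, at 1.85 and NUDT21, a cleavage factor subunit, at 1.13. At the other end were ZFC3H1, which links nuclear polyadenylated RNA to the exosome, at -0.45 and FIP1L1, a cleavage and polyadenylation subunit, at -0.38. CSTF2 was the only gene of this list with values per library. Its log2 difference of PABPN RIP against input was -0.79 (adjusted p = 1.20e-04 in limma), a direction called for 9.42% of the genes fitted. In PABPC RIP against input it stood at 0.00488 (adjusted p = 0.968 in limma). Its log2 difference of PABPC RIP against PABPN RIP was 0.80 (adjusted p = 2.32e-05 in limma), a direction called for 32% of the genes fitted.

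PABPN1 overlaps a readthrough gene, BCL2L2-PABPN1, which was listed at means of 24.5 (PABPN table) and 15 (PABPC table). Reads that fit PABPC1 and its processed copies elsewhere in the genome could have been assigned to either or left out. The level of PABPC1 is uncertain to an extent that was not examined.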

How the data were processed

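The 9 libraries (3 input, 3 PABPN RIP, 3 PABPC RIP) were grouped by sample title. They were depleted of ribosomal RNA, prepared with a stranded kit and read from 1 end for 75 nt. The authors aligned reads to hg38 with STAR, counted introns and exons together per gene with featureCounts 2.0.2 on an annotation cleared of stretches shared by genes, and compared each RIP with input in DESeq2. Genes with reads running in from upstream were removed by the authors.

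The signal that the authors deposited, 1 column in each of 2 tables (51234 and 51391 rows, with 123 repeated rows each of which the first was kept), is the mean over 6 libraries of counts divided by size factors, together with a gene length in bases as another column. The other columns the authors deposited hold their fold change, its error, a test statistic and p-values, and were not used. No column holds 1 library.

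Genes with 1 read in 1 library gave the 6 size factors of each table, and those found in both tables marked the input libraries. The scale between the tables was the mean of the 3 input ratios (0.855, from 0.846 to 0.860). Whole reads per library were solved from the 15 digits of both means by lattice reduction (sympy 1.14.0, numba 0.67.0) for genes with means from 10 to 3000, and kept where 1 set held at least 99% of the weight. Only sets whose replicates lay within a limit on their spread were searched. Of 5309 genes with means above 50 and below 1000 in both tables, 3 had more than 1 set and 2 had none. Between 1000 and 3000, 2563 of 4069 were kept, so the 7870 genes fitted lean to low levels and, above 1000, to genes with even replicates. The solver and the fit were also run on simulated data, with outcomes that are not given here. For the solver, the simulated spread was drawn from genes that it had itself recovered.

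Recovered reads were divided by size factors, and log2(value + 0.5) was fitted in limma 3.58.1 (R 4.3.3) with all 9 libraries in 1 model, Benjamini-Hochberg adjustment over all genes fitted, and the cut-offs of the study (adjusted p of at most 0.01, log2 difference beyond 0.5, means above 50). Named genes were the 6 members, the family genes above 50, the 2 highest and 2 lowest of each list, and the 3 genes most like a member. TOB1, GSPT2 and CSTF2 were named after their values were seen. The members and lists were chosen with earlier results of these data known. The alternatives were another scale, pseudocount, filter, cut-off, centring and set of libraries.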

Additional observations from a re-analysis of the deposited data

How the results depend on the processing

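All 6 members were higher in PABPC RIP than in PABPN RIP under each scale tried (the median, lowest and highest of the 3 input ratios, and centring). Centring the log ratio of the RIPs on its median over recovered genes, which lay at -0.17, raised the lowest log2 ratio to 1.61 for PABPC1, 1.05 for PAIP2, 0.89 for PABPN1, 0.75 for PAIP1, 0.72 for PABPC4 and 0.56 for PAIP2B, the last then past 0.5. The differences in normalised reads became 65850, 5161, 7635, 2109, 10720 and 754 in that order.

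PAIP1 in PABPC RIP against input, at 0.483, passed 0.5 when each library was centred on its median (0.521), without the 3 libraries that deviated together (0.517, chosen after seeing the data), and without input B (0.506) or PABPC RIP A (0.548). Leaving out 1 library at a time, it ran from 0.44 to 0.548, and its adjusted p over all alternatives from 4.27e-08 to 0.00142. The other ranges were -0.751 to -0.699 for PAIP1 in PABPN RIP against input, 1.16 to 1.27 for PAIP1 between the RIPs, 0.947 to 1.06 and 0.316 to 0.43 for PAIP2B in PABPC and PABPN RIP against input, and 0.586 to 0.662 for PAIP2B between the RIPs. For PAIP2B in PABPN RIP against input, the adjusted p in limma ran from 1.21e-04 to 0.038 over all alternatives. With a log2 cut-off of 1, the calls of PAIP1 in PABPN RIP (-0.721), of PAIP2B in PABPC RIP (0.992) and of PAIP2B between the RIPs (0.631) were lost. When a set of reads had to hold 0.9999 of the weight, PAIP1 had no value.

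Counts of genes depended on the genes admitted. Genes higher in PABPN RIP than in input numbered 1545, 1019 with means above 200 and 615 under the cut-off of 1, while those lower 741, 192 with that cut-off and 327 with both means below 1000, a limit chosen after seeing the data. Genes lower in PABPC RIP than in input numbered 2500, 4050 with means above 10 and 1420 above 200, and those higher 3037, or 1803 below 1000. Genes lower in PABPC RIP than in PABPN RIP numbered 3116, 4979 above 10 and 1746 above 200, and those higher 2521, or 1380 below 1000. Over 1 library left out, these counts ran from 1244 to 1622, 552 to 794, 2397 to 2563, 2921 to 3080, 2954 to 3166 and 2421 to 2533 in the order given. Of PABPN RIP calls, 67.6% were higher, or 56.6% after centring.

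No paired analysis was possible because the deposited means carry no replicate numbers. Sets of libraries read from the deviations themselves were not used as a block, since they would be chosen from the values tested. Depth limited values per library to PAIP1 and PAIP2B, and the other 4 members have no replicate error.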
